A study of Mus musculus with 10 samples.

Results

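Microglia without any intact copy of Trem2 were set against microglia with at least 1 intact copy, the comparison that a recessive effect would show in. The 3 libraries labelled KO (TREM2-/-) formed 1 side, and the 4 labelled WT (TREM2+/+) and 3 labelled Het (TREM2+/-) together formed the other, so all 10 libraries of the series entered. The genes were all those with 0.5 RPKM (reads scaled to gene length and to the library total) or more in at least 3 libraries, 13641 of the 24060 names listed. A gene was kept where the mean log2 values of WT and of Het lay both below or both above that of KO: 9147 genes were kept, 5340 with KO higher (39.1% of those tested) and 3807 with KO lower (27.9%), and in 4494 KO lay between the other genotypes. These shares follow from the rule and are not a result. At the 0.5 RPKM limit, the third highest value was 0.5003 RPKM for Ephx4, just inside, and 0.4998 for P4ha3, just outside. At the edge of the direction rule, Aak1 was kept with means of 3.5534 in WT and 3.4664 in both Het and KO on the log2 scale, whereas Stard3nl was not, with 4.9328 in both WT and KO and 4.8543 in Het.

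All mice were of the C57BL/6 strain and 3 to 5 months old. WT held 2 female and 2 male libraries (numbers 1, 4, 7 and 10), Het 2 female and 1 male (5, 8 and 11), and KO 1 female (6) and 2 male (9 and 12). Microglia were isolated with beads against CD11b, an integrin subunit that monocytes, neutrophils and border macrophages also carry. Whether each library holds 1 mouse or a pool is not stated in the labels, nor is the part of the gene that the allele removes, so the p-values below reflect only how far these libraries differ.

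TREM2 is a lipid-binding receptor on the surface of microglia and other myeloid cells. It has almost no signalling tail of its own and signals through the adaptor DAP12, encoded by Tyrobp, which recruits the kinase Syk and, further on, phospholipase C gamma 2 and phosphoinositide 3-kinase. In models of plaque disease and demyelination, microglia without the receptor are known to enter the disease-associated state less fully and to handle myelin cholesterol poorly, while carriers of 1 copy are often compared with them to ask whether a single copy is enough.

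The deposited values gave back 17.63 to 45.09 M whole reads per library (M, megareads). Libraries 9, 10, 11 and 12 held 37.14 to 45.09 M and the other 6 held 17.63 to 22.53 M, so 2 of the 3 KO libraries and 2 of the 7 others were among the deeper ones. Microglial identity was plain in all libraries: the 22 homeostatic genes summed to 21760 to 25088 RPKM in the intact libraries and to 23927, 25291 and 22508 in KO libraries 6, 9 and 12. Library 6, the female KO, stood apart by its neutrophil transcripts (2411 RPKM summed over 11 markers, against 245 to 546 in the other 9), and the results that change most without it are given with and without it. The fits hold sex as a covariate, and library 6 is the 1 female KO. Fitted differences without it are therefore those of the male libraries, KO 9 and 12 against WT 4, WT 7 and Het 8. There both KO libraries are deeper (38.12 and 40.19 M reads) than all the intact ones (20.49, 18.45 and 17.63 M). Genotype and depth cannot be told apart in any difference given without library 6.

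Across the transcriptome, loss of the last intact copy left 1 gene past the threshold, Trem2 itself. In limma on log2(RPKM + 0.5), with sex as a covariate and Benjamini-Hochberg adjustment over all genes, 1 of 13641 genes was called at an adjusted p under 0.05 (0.00733%), 0 of them higher and 1 lower in KO. At an unadjusted p under 0.05 there were 662 genes (4.85%), of which 458 were higher in KO (3.36%) and 204 lower (1.5%). The excess of higher genes moved with the scaling: with median-ratio scaling of the libraries the split was 356 higher and 314 lower. The median difference over all genes was 0.031 on the log2 scale, with quartiles of -0.07 and 0.14, and 103 genes differed by 1 log2 unit or more, 74 with KO higher and 29 with KO lower. All 662 genes were among those kept by the direction rule. In a fit with the 3 genotypes kept apart, which uses the same libraries, 1 gene was called for KO against WT (700 at an unadjusted p under 0.05, 5.13%), 1 for KO against Het (458, 3.36%) and 0 for Het against WT (375, 2.75%). The differences given from here on are KO minus intact in log2(RPKM + 0.5), where the added 0.5 shrinks the differences of weakly expressed genes.

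Trem2 (ENSMUSG00000023992.14, chr17:48346401-48354147, plus strand, GRCm38) fell in the null libraries, but the intact group it was set against was not uniform. It was at 170, 185, 237 and 174 RPKM in WT libraries 1, 4, 7 and 10. Het libraries 5, 8 and 11 held 105, 85.2 and 91.7 RPKM, and KO libraries 6, 9 and 12 held 28.3, 21.4 and 23.9. Every KO value lay below every Het value, and every Het value below every WT value. KO stood at 16.4% of the intact mean of 150 ± 56.9 RPKM (SD, n = 7), a log2 difference of -2.52 (SE 0.30, limma adjusted p = 0.03). An exact two-sided permutation test over the 120 ways to choose 3 of 10 libraries gave p = 0.00833, the smallest it can give. The genotype labels are those of this gene, so its fall is a check of the labels and does not bear on other genes. Het against WT, in the fit with 3 genotypes, was -1.02 (SE 0.14, unadjusted p = 1.75e-05 and adjusted p = 0.239 by limma). Treating WT and Het as 1 group therefore put a copy-number difference into the spread: the residual SD of Trem2 was 0.54 with 1 intact group and 0.21 with 3 genotypes, a factor of 2.54 that was the 6th highest of all genes. Of the 13641 genes, 152 had a factor of 1.5 or more. The adjusted p of Trem2 rose above 0.05 when any 1 of WT 1, 4 and 10, Het 5 and KO 6, 9 and 12 was left out, with log2 differences between -2.75 and -2.33 over the 10 fits with 1 library left out. The KO libraries still held 627, 934 and 1103 reads assigned to Trem2.

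**Figure D1:**
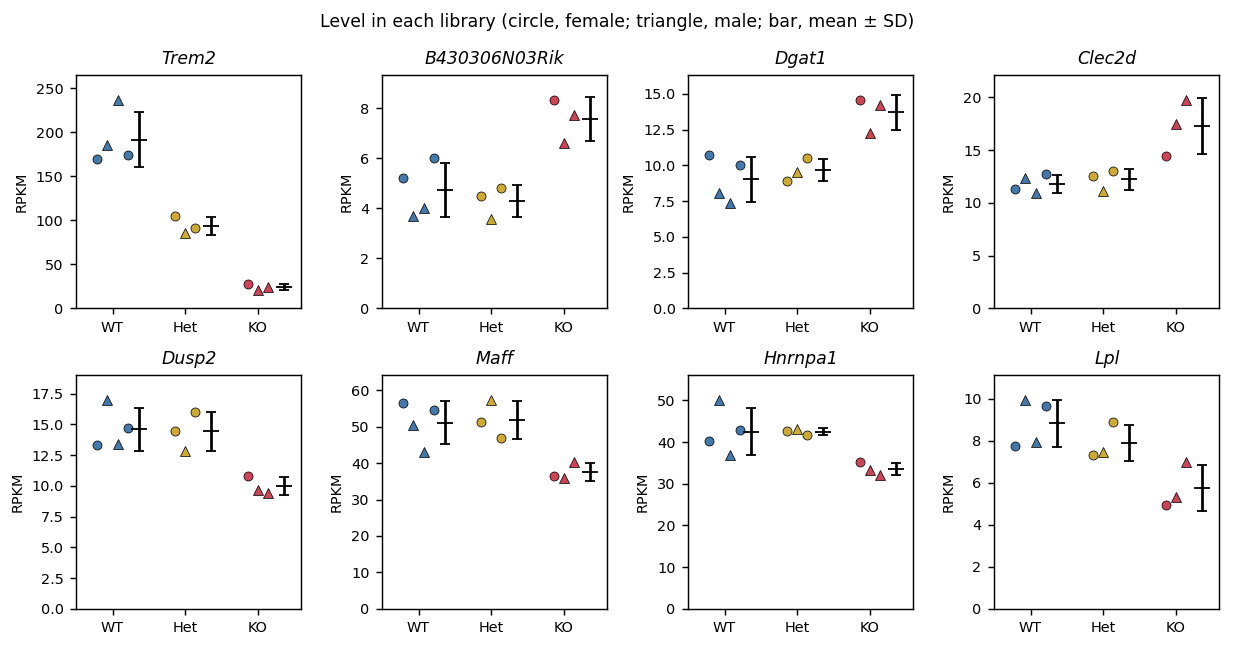
RPKM of 8 genes in each library, by genotype (4 WT, 3 Het, 3 KO), on linear axes that start at 0; circles are female and triangles male libraries, and the bar is the mean ± SD. Trem2 steps down from WT to Het to KO, whereas in the other 7 genes the WT and Het libraries share a range and the KO libraries lie outside it.

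The genes beside Trem2 on chromosome 17 encode other TREM-family receptors and unrelated neighbours, and several of them stood apart in the null libraries. Of 11 cluster genes and neighbours tested, from a list of 14, 0 were called and 8 had an unadjusted p under 0.05 (6 with KO higher and 2 lower). Without KO library 6 there were 3 higher (B430306N03Rik, Nfya and Unc5cl) and 2 lower. The list median was 0.42, and 0.35 without that library, against 0.031 for all genes. Within 1 Mb of Trem2, 12 of 27 genes had an unadjusted p under 0.05 (44.4%), 9 with KO higher. From 1 to 10 Mb away the share was 8 of 110 (7.27%), on the rest of the chromosome 35 of 523 (6.69%), and on other chromosomes 574 of 12328 (4.66%). The list members are among the 27.

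B430306N03Rik (ENSMUSG00000043740.15, chr17:48316141-48327024, plus strand), a gene of the receptor cluster with its start at -30.3 kb from that of Trem2, had the smallest p of all genes after Trem2. It ranged from 3.59 to 6.02 RPKM in the intact libraries (median 4.48) and was at 8.35, 6.61 and 7.73 in KO libraries 6, 9 and 12. All 3 null libraries lay above all 7 intact ones, while WT (4.73 RPKM) and Het (4.29 RPKM) means were close. The difference was 0.77 (SE 0.13, limma adjusted p = 0.393), and 0.84 (unadjusted p = 0.000366 by limma) without KO library 6. With no sex term, it was 0.93 in the libraries with fewer reads, where KO 6 is the 1 null library. In the deeper libraries, where both KO were male and both intact ones female, it was 0.38. The reads behind the gene numbered 219 to 940 in the intact libraries and 558, 872 and 1076 in the KO libraries.

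Treml4, a receptor of monocytes and macrophages, was at 0.305 to 1.14 RPKM in the intact libraries (median 0.62) and at 2.52, 1.23 and 1.81 in KO, again without overlap (log2 1.02, SE 0.26, limma adjusted p = 0.902). It is also on the monocyte marker list, whose sum was highest in KO library 6, and without that library the difference was 0.64 (unadjusted p = 0.0551 by limma). Treml1, known from platelets, was at 1.74 to 4.15 RPKM (median 3.36) and at 6.46, 4.34 and 4.44 in KO (0.63, SE 0.23, limma adjusted p = 0.927). In Treml1 the gap was narrow, and the difference was 0.35 without KO library 6. Nfya, a subunit of the CCAAT-binding factor NF-Y, held 139, 121 and 117 RPKM in KO. Its intact libraries were at 87.1 to 134 (median 89.5), and Het library 5, at 134, lay above 2 of the KO libraries. Trem1, which boosts inflammatory signalling in neutrophils, stood at 5.73 RPKM in KO library 6 and at 1.03 and 0.896 in the other null libraries, inside the intact range of 0.472 to 1.48; its difference of 0.89 became 0.055 without library 6. That library also had the highest summed neutrophil and monocyte markers, whose part in the Trem1 and Treml4 values was not tested.

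In 3 neighbours Het also differed from WT at an unadjusted p under 0.05, with means ordered by copy number. Treml2, a relative of Trem2 found on macrophages and B cells, was at 6.46, 7.52, 9.06 and 7.63 RPKM in WT libraries 1, 4, 7 and 10, at 4.4, 4.25 and 3.31 in Het libraries 5, 8 and 11, and at 3.9, 1.83 and 1.64 in KO libraries 6, 9 and 12. Het lay wholly below WT and overlapped KO through library 6. Null against intact was -1.16 (SE 0.32, limma adjusted p = 0.902) and Het against WT -0.89 (SE 0.24, unadjusted p = 0.00367), so pooling WT with Het widened its spread as it did for Trem2. Without KO library 6 the null difference was -1.68. Mdfi, an inhibitor of myogenic transcription factors, had means of 1.48, 0.802 and 0.359 RPKM in WT, Het and KO (-1.07, SE 0.25). Unc5cl, a death-domain protein, went the other way with 0.287, 0.777 and 1.28 RPKM (0.95, SE 0.28). Foxp4, Oard1 and Apobec2 completed the cluster list, at -0.08, 0.02 and 0.38, and the sign of the first pair depended on the libraries used.

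The stretches upstream of the 2 genes with the smallest p, which lie side by side and differed in opposite directions, are printed below as the 250 bases before each RefSeq start (GRCm38.p6, plus strand, chr17:48346151-48346400 for Trem2 and chr17:48315912-48316161 for B430306N03Rik). Capitals mark GAGGAAGT, a core that the myeloid factor PU.1 is known to bind, searched on both strands (ACTTCCTC on the other).
Trem2: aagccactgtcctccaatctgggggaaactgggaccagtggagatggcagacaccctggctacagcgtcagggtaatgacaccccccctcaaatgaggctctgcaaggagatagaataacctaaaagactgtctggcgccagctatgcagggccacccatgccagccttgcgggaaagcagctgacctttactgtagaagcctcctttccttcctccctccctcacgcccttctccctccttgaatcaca
B430306N03Rik: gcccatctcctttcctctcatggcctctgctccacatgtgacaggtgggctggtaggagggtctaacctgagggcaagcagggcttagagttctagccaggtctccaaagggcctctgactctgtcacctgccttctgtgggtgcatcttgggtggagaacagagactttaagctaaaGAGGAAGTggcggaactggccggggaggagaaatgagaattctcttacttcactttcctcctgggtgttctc
The letters occur 1 time in the B430306N03Rik stretch, with the first base at position -72 from the start, and 0 times in that of Trem2. Of the 32851 promoters in the RefSeq table, 802 hold them in the same window (2.44%). A match describes letters only.

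**Figure D2:**
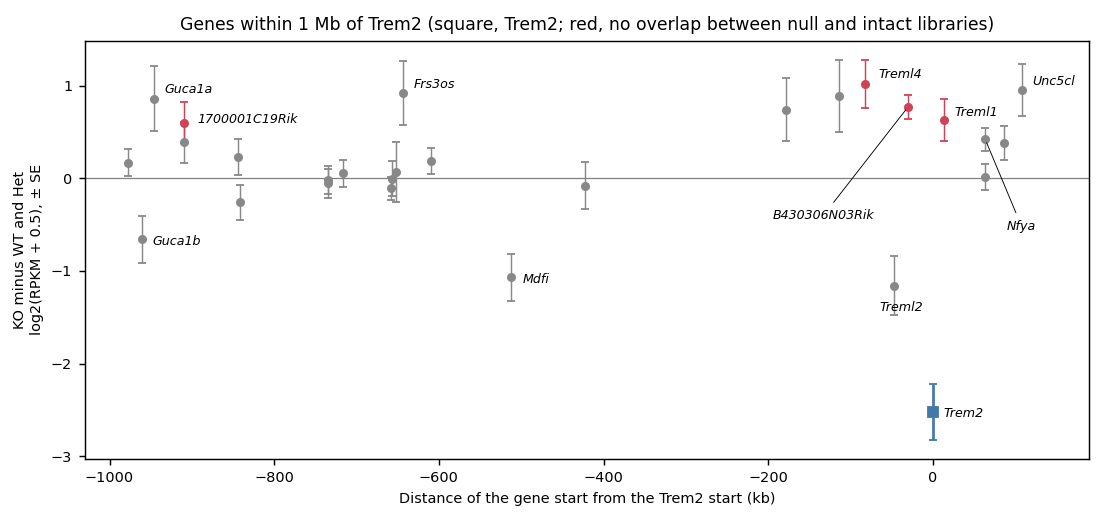
Difference between KO and intact libraries (log2(RPKM + 0.5), ± SE) for the 27 genes tested within 1 Mb of Trem2, by the distance of their start from the Trem2 start in kb; the square is Trem2 and red points are the 4 genes whose KO and intact libraries do not overlap. Treml2, at -46.9 kb, is low, and B430306N03Rik, at -30.3 kb, is high.

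Away from chromosome 17, the 12 named genes that were higher in KO, those with the smallest p among annotated genes of 1 RPKM or more, had differences of 0.30 to 2.36, and none was called by limma (lowest adjusted p = 0.689). Dgat1 (chr15:76502015-76511953, minus strand), which joins the last fatty acid to diacylglycerol to form triglyceride, headed them. It was at 7.35 to 10.7 RPKM in the intact libraries (median 9.56) and at 14.6, 12.3 and 14.2 in KO libraries 6, 9 and 12. The null libraries all lay above the intact ones, which had close means with 2 copies (9.04 RPKM) and with 1 (9.67 RPKM). The difference was 0.60 (SE 0.11, limma adjusted p = 0.689), and 0.65 without library 6. With no sex term, it was 0.69 in the libraries with fewer reads and 0.35 in the deeper ones. Dgat2, the other enzyme of this step, was at 1.44, 1.66 and 1.63 RPKM in WT, Het and KO.

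Clec2d (chr6:129180615-129186534, plus strand), a C-type lectin-like ligand of the natural killer receptor Nkrp1, was the 1 named gene of this group with its lowest null value in library 6. It was at 10.9 to 13 RPKM in the intact libraries (median 12.4) and at 14.5, 17.5 and 19.8 in KO, without overlap (0.49, SE 0.11, limma adjusted p = 0.804). Without library 6 the difference was 0.67 (unadjusted p = 0.000173). Commd2, of the COMMD family of endosomal sorting proteins, was at 2.38 to 3.67 RPKM (median 2.87) and at 6.24, 4.14 and 3.68 in KO, where library 12 lay just above the highest intact library. Its difference was 0.66 (SE 0.14).

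Overlap between the groups was seen in Hdac8, Abracl, Mrps18c and Ccnd1. Hdac8, an X-linked lysine deacetylase, was at 1.79 to 3.06 RPKM in intact libraries and at 4.48, 2.98 and 3.66 in KO (0.67, SE 0.14); the annotation places Gm14858 on its opposite strand, and the sources used here do not give strand use in the counting. Abracl, an actin regulator (0.49, SE 0.11), Mrps18c, a protein of the mitochondrial ribosome (0.72, SE 0.18), and Ccnd1, cyclin D1 (0.30, SE 0.08), each had at least 1 null library inside the intact range. Of them, Ccnd1 was at 52.5 to 63.7 RPKM in intact libraries and 76.6, 63.2 and 69.7 in KO.

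The other 5 were Mmp9, Camp, Ngp, Plac8 and S100a6, of which Mmp9, Camp and Ngp are on the neutrophil marker list and Plac8 is on the monocyte list. Camp, the precursor of the antimicrobial peptide CRAMP, was at 1.55 to 3.97 RPKM in intact libraries (median 2.74) and at 59.9, 5.91 and 6.98 in KO (2.36, SE 0.51, and 1.05 without library 6). Mmp9, a gelatinase of neutrophil granules, was at 0.584 to 1.91 RPKM (median 1.06) and at 7.01, 2.43 and 2.83 in KO (1.45, SE 0.28, and 1.05 without library 6). In both genes all null libraries lay above the intact ones, with KO 6 highest. S100a6, a calcium-binding protein, was at 0.136 to 3.21 RPKM and at 10.7, 3.94 and 6.61 in KO (1.94, SE 0.40, and 1.81 without library 6), also without overlap. In bulk RNA, more cells of another type and more RNA per cell cannot be told apart. Mmp9 was called by limma-voom on the recovered reads (adjusted p = 0.0207), and Camp with a term for the deeper libraries (2.94, limma adjusted p = 0.0153).

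Lower in KO, after Trem2, came 11 named genes with differences of -0.29 to -1.16, of which 0 were called by limma (lowest adjusted p = 0.772). Dusp2 (chr2:127336159-127338376, plus strand), a phosphatase that inactivates MAP kinases in immune cells, was at 12.8 to 17 RPKM in the intact libraries (median 14.5). It was at 10.8, 9.66 and 9.45 in KO libraries 6, 9 and 12, all below the lowest intact library. The null level was 68.6% of the intact mean, and WT and Het means were 14.6 and 14.4 RPKM (-0.50, SE 0.11, limma adjusted p = 0.772). Without library 6 it was -0.56.

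Maff (chr15:79346621-79359076, plus strand), a small Maf transcription factor of the stress response, showed the same arrangement. It was at 43.1 to 57.4 RPKM in intact libraries (median 51.3) and at 36.6, 35.9 and 40.3 in KO (-0.44, SE 0.10, limma adjusted p = 0.804). WT stood at 51.2 and Het at 51.9 RPKM, and the null mean was 73.1% of the intact mean. Lpl (chr8:68880491-68907448, plus strand), the lipase that frees fatty acids from lipoproteins and a gene of the disease-associated programme, was at 7.33 to 9.94 RPKM (median 7.96) and at 4.94, 5.32 and 7 in KO. Its null libraries lay below all intact ones, KO 12 only by a little (-0.54, SE 0.14, limma adjusted p = 0.902; Het against WT -0.14).

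Psen2, a catalytic subunit of gamma-secretase, the protease that also cuts the stub of TREM2 after shedding, was at 2.52 to 4.75 RPKM (median 3.43) and at 2.36, 2.33 and 2.01 in KO (-0.60, SE 0.16, limma adjusted p = 0.902). The groups did not overlap, although KO 6 and Het 11 were close. Hnrnpa1, an RNA-binding splicing regulator, was at 36.8 to 50.1 RPKM and at 35.2, 33.2 and 32.2 in KO (-0.33, SE 0.09); it has many processed pseudogene copies, so its count is uncertain. Zbed3, which binds axin in the Wnt pathway and hosts Snora47, was at 19.5 to 23.9 RPKM and at 16.2, 17.7 and 19.1 in KO (-0.29, SE 0.08).

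Chst2, a sulfotransferase of glycan chains (-0.74, SE 0.21), Pdzrn3, a ubiquitin ligase (-0.74, SE 0.22), Malsu1, an assembly factor of the mitochondrial ribosome (-0.39, SE 0.12), and Rragd, a Rag GTPase that brings mTORC1 to the lysosome (-0.51, SE 0.15), overlapped between the groups. Chst2 was at 2.52 to 5.59 RPKM in intact libraries and at 2.65, 2.71 and 1.88 in KO, with Het library 5 the low intact one. Rragd was at 3.13 to 5.28 RPKM in intact libraries and at 2.53, 3.31 and 2.9 in KO. Malsu1 overlaps Igf2bp3 on the opposite strand.

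Over the 24 named genes, 12 in each direction, 14 showed no overlap between null and intact libraries, 7 higher and 7 lower. All genes had 1.26% without overlap, but the 24 were picked by p in the same comparison, so this count follows largely from the choice. Het differed from WT at an unadjusted p under 0.05 in 2 of the 24, Trem2 and Treml2, against 2.75% of all genes. Mrps18c was at 1.24 in the libraries with fewer reads, where KO 6 is the 1 null library, and at -0.02 in those with more reads, where KO 9 and 12 face WT 10 and Het 11. In 11 of the 12 higher genes the difference was larger in the libraries with fewer reads. In the remaining gene, Clec2d, it was 0.30 there and 0.52 in the others. These differences have no sex term, and with more reads both KO libraries were male and both intact ones female. The genes were also picked by p with KO 6 in the fit, and the share over all genes is not given here.

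**Figure D3:**
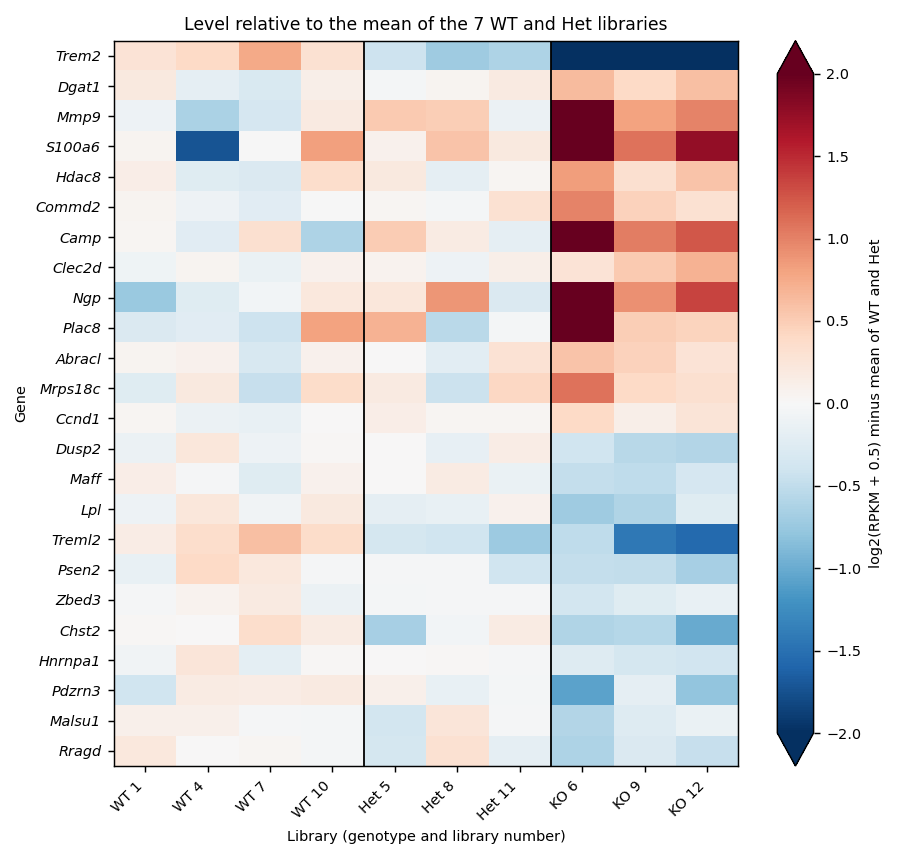
Level of the 24 named genes in each of the 10 libraries, as log2(RPKM + 0.5) minus the mean of the 7 WT and Het libraries; the colour scale ends at 2 and -2 and vertical lines separate the genotypes. The null columns are red for the 12 genes named higher and blue for the 12 named lower, and KO 6 is the deepest red in Mmp9, Camp and Ngp.

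A stricter reading of the rule asks that all 3 null libraries lie on 1 side of all 7 intact ones. It was met by 172 of 13641 genes (1.26%), 119 with KO higher (0.872%) and 53 lower (0.389%). With labels given at random, 1 of the 120 ways to choose 3 of 10 libraries puts them all highest for a gene, a share of 0.00833. The share for all lowest is the same. The first share found was close to that and the second below it, so lack of overlap alone does not mark a gene as changed. Differences were small: the median was 0.41 in the higher and -0.35 in the lower genes, and a gap of 0.25 log2 units or more between the nearest libraries was found in 5 and 2 genes. By gap, after Trem2 at 1.57, they were Camp (0.52), the olfactory receptor gene Olfr112 (0.47), 3110035E14Rik (0.33), Hyal1, a lysosomal hyaluronidase (0.32), Mmp9 (0.28) and S100a6 (0.26); Olfr112, 3110035E14Rik and Hyal1 were singled out after their values were seen. KO library 6 was the highest null library in 55 of the 119 genes and the lowest in 20 of the 53. With that library left out, 407 genes (2.98%) were higher and 247 (1.81%) lower without overlap, as fewer libraries have to lie on the same side.

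Among the 172, Het and WT differed by less than 0.1 log2 units in 92 (53.5%), against 6327 of all 13641 genes (46.4%), and at an unadjusted p under 0.05 in 2 (1.16%, against 2.75% of all genes). Genes whose intact libraries lie close together meet the no-overlap condition more easily, so these shares are partly set by it. The share without overlap was somewhat larger at low levels: 28 of 1847 genes under 1 RPKM (1.52%), 65 of 4283 from 1 to 5 RPKM (1.52%), 53 of 4638 from 5 to 20 RPKM (1.14%) and 26 of 2873 at 20 RPKM or more (0.905%). The median residual SD over the same tiers was 0.36, 0.29, 0.19 and 0.15. Names of the microRNA kind supplied 7 of their 378 (1.85%), of which 1, Mirlet7bhg, is a host gene, and small nucleolar and Cajal body RNAs 0 of 100.

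The 22 lists, of the TREM cluster, microglial programmes and markers of other cells, held 404 genes, of which 365 were tested. Of these, 0 were called and 49 had an unadjusted p under 0.05. Over all genes the share was 4.85%, with 3.36% higher and 1.5% lower in KO. In lists this short, a count of 1 or 2 genes at that p says little about the list. The null libraries lay wholly apart in 14 of the 365 (3.84%, against 1.26% of all genes), 10 higher and 4 lower. Members and lists were chosen with earlier results of these data known, so these counts may follow in part from the choice. Of these 14, the TREM cluster, neutrophil and monocyte lists held 8, among them Treml1, Treml4, Ngp, Camp and Mmp9. Of 18 DAP12 and Syk pathway genes, 0 had an unadjusted p under 0.05 in either direction (median 0.03). Without library 6, 1 was higher and 0 lower (median 0.14), where all genes had a median of 0.040 and 4.33% were higher and 1.85% lower at that p. Tyrobp, the DAP12 adaptor itself, was at 536 to 747 RPKM in intact libraries (median 663) and at 587, 681 and 774 in KO (0.07, SE 0.12). Its difference was 0.26 without library 6 and -0.22 in the female libraries alone, where library 6 is the 1 null library. The Src-family kinase Lyn was at 201 to 244 RPKM and at 242, 227 and 204 in KO, and Syk had means of 29.8, 32.6 and 31.1 RPKM in WT, Het and KO.

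Of 30 disease-associated microglial genes, which in neurodegeneration rise in part through TREM2, 21 had a negative and 9 a positive difference (median -0.11). At an unadjusted p under 0.05, 0 were higher (3.36% of all genes) and 3 lower (1.5% of all genes): Lpl, Csf1 and Timp2. Csf1, a growth factor of the macrophage lineage, had means of 81, 69.4 and 52.5 RPKM in WT, Het and KO (-0.47, SE 0.20). Timp2, an inhibitor of metalloproteinases, was at 112 to 174 RPKM in intact libraries and at 102, 140 and 134 in KO (-0.32, SE 0.11). Ctsl, cathepsin L, was apart from the intact libraries without reaching that p (374, 352 and 314 RPKM; -0.21, SE 0.10). The most abundant members had null libraries both inside and outside the intact range, with B2m at 4129 to 5605 RPKM and at 5025, 4410 and 3748 in KO, and Ctsd at 3354 to 4061 and at 3258, 4161 and 3898. In 3 further members the Het mean was nearer to KO than to WT: Clec7a, a beta-glucan receptor (12.3, 8.43 and 7.67 RPKM in WT, Het and KO), Itgax, the CD11c integrin subunit (7.05, 5.25 and 4.29 RPKM), and Axl, a phagocytic receptor (12.3, 10.2 and 8.4 RPKM). They were picked after their values were seen, and their null differences were -0.47 (SE 0.31), -0.39 (SE 0.21) and -0.39 (SE 0.20). Het was also nearer to KO in B2m (5092, 4425 and 4394 RPKM in WT, Het and KO) and Timp2 (160, 135 and 125 RPKM). In Lpl, Csf1 and Ctsl it was nearer to WT. Without library 6, the list had 1 gene higher and 1 lower at an unadjusted p under 0.05, with a median of -0.07.

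Homeostatic genes, the identity genes of resting microglia, numbered 22, of which 0 had an unadjusted p under 0.05 (median 0.04); without library 6, 2 were higher and 0 lower (median 0.05). Cst3, cystatin C, was at 8218 to 9121 RPKM and at 8183, 9374 and 7949 in KO. The purinergic receptor P2ry12 had means of 1966, 1862 and 2073 RPKM in WT, Het and KO (0.11, SE 0.14), and Tmem119 had 525, 548 and 566 (0.05, SE 0.14). Sall1, a transcription factor that keeps microglial identity, was at 181, 165 and 185 RPKM (0.04, SE 0.09).

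Among 25 genes of lipid handling, Dgat1 was the 1 gene with an unadjusted p under 0.05 (list median 0.04). Its partners in droplet formation, Plin2, which coats droplets (18.5, 21.3 and 22.8 RPKM in WT, Het and KO; 0.21, SE 0.16), and Soat1, which esterifies cholesterol (27, 25.7 and 25.5 RPKM; -0.06, SE 0.10), did not reach it. Abca1, the cholesterol exporter, was at 73.4 to 88.3 RPKM and at 81.5, 72.9 and 78.5 in KO. In cholesterol synthesis 2 of 17 genes had KO higher at that p (3.36% of all genes) and 0 lower (median 0.08). Msmo1, a sterol methyl oxidase, was at 4.77 to 5.88 RPKM (median 5.21) and at 6.47, 7.16 and 6.45 in KO, all above the intact libraries (0.30, SE 0.11, limma adjusted p = 0.927). Nsdhl, which acts on the same methyl groups, was at 7.06 to 9.44 RPKM and at 9.64, 8.9 and 10.2, with KO 9 inside the intact range (0.26, SE 0.11). Insig1, a brake on the pathway, was at 25.2 to 34.6 RPKM and at 30.8, 27.8 and 25.7 in KO.

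Lysosomal genes (21 tested, 0 at an unadjusted p under 0.05, or 1 higher without library 6, median -0.05) and genes of complement and phagocytosis (20 tested, 2 higher and 0 lower, median -0.03, or 1 higher without library 6) had medians near 0. C1qb, a chain of the complement starter C1q, was at 1682 to 1959 RPKM and at 1541, 1966 and 2049 in KO. C3, the central complement component, was at 1.82 to 4.22 RPKM and at 12.7, 2.83 and 2.87, so library 6 alone lay outside (1.00, SE 0.28, and 0.39 without it). Of 22 energy and mTOR genes, 1 was lower at that p: Ddit4, an inhibitor of mTORC1 that glucocorticoids and hypoxia induce, at 3.12 to 10.8 RPKM and at 3.81, 2.52 and 2.32 in KO (-0.78, SE 0.30). Het libraries 5 and 8 held its highest values, with a mean of 8.21 RPKM against 4.35 in WT. Hk2, hexokinase 2, was at 59.4 to 67.5 RPKM (median 62.7) and at 54.3, 58.2 and 55.8 in KO, without overlap but within a narrow band (-0.15, SE 0.07).

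Inflammatory NF-kB genes had KO lower in 3 of 22 at an unadjusted p under 0.05 and higher in 0 (median -0.12). Over all genes, 1.5% were lower and 3.36% higher at that p. Without library 6, the list median was -0.02 with 1 gene lower, where 1.85% of all genes were lower. Nfkbia, the NF-kB inhibitor that NF-kB itself induces, was at 248 to 330 RPKM (median 286) and at 195, 267 and 207 in KO, with KO 9 inside the intact range (-0.38, SE 0.12, limma adjusted p = 0.902). Cxcl16, a chemokine and scavenger receptor, was at 64.2 to 109 RPKM and at 66.6, 75.9 and 71.2 in KO (-0.32, SE 0.12), with Het 5 lowest of all; it overlaps Zmynd15 on the opposite strand. Gpr84, which senses medium-chain fatty acids, had means of 187, 146 and 141 RPKM in WT, Het and KO, so that Het lay near KO (-0.32, SE 0.13). The chemokine Ccl3 was at 1447 to 1865 RPKM and at 1424, 1518 and 1857. Immediate early genes, which cell isolation itself can induce, had 1 of 20 lower, Dusp1 (1546 to 2422 RPKM, and 1303, 1717 and 1756 in KO; -0.31, SE 0.11), with a median of -0.09 that became 0.03 without library 6. Antigen presentation had 1 of 17 lower, the class I chain H2-K1 (807 to 1142 RPKM, and 868, 670 and 696 in KO; -0.25, SE 0.12), and survival genes 1 of 17, Bcl2a1b (40.1 to 58 RPKM, and 42.1, 47.8 and 41.5 in KO; -0.29, SE 0.10), which has near-identical copies and is uncertain.

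The difference in interferon-stimulated genes had opposite signs in the libraries with fewer and with more reads. Differences within these depth groups have no sex term. Among the libraries with more reads, both KO libraries (9 and 12) were male and both intact ones (WT 10 and Het 11) female. Of 25 genes, 22 had a positive difference (58% of all genes had one). At an unadjusted p under 0.05, 2 had KO higher (3.36% of all genes), and the list median was 0.15. Among the libraries with fewer reads the median was 0.65, where KO 6 is the 1 null library; among those with more reads it was -0.40, where WT 10 held the highest intact sum (458 RPKM, against 283 to 347 in the other 6). Oas2, a sensor of double-stranded RNA, was at 2.89 to 7.16 RPKM and at 9.61, 4.59 and 5.99 in KO (0.64, SE 0.19), and Ifitm3, which blocks viral entry, at 42.5 to 76.9 and at 98.4, 60.1 and 79.2 (0.39, SE 0.16). Both overlapped. Cell cycle genes followed the same libraries: 6 of 23 were higher at that p and 0 lower (median 0.33), with medians of 0.67 and -0.07 in the libraries with fewer and with more reads. Mki67, the proliferation antigen, was at 4.43 to 6.69 RPKM and at 15.2, 6.09 and 6.05 in KO (0.68, SE 0.21, and 0.23 without library 6). Top2a, topoisomerase II, had means of 3.53, 3.03 and 5.45 RPKM (0.67, SE 0.25), and Ube2c, which overlaps Tnnc2 on the opposite strand, was at 1.74 to 5.06 RPKM and at 6.34, 3.13 and 8.15 (1.06, SE 0.34). Pcna, the most abundant member, was at 37.6 to 49.2 RPKM and at 33.8, 46.2 and 43.9. Without library 6, 0 cell cycle and 0 interferon genes had an unadjusted p under 0.05. The part of depth, of sex and of that library in these results was not tested beyond these values.

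**Figure D4:**
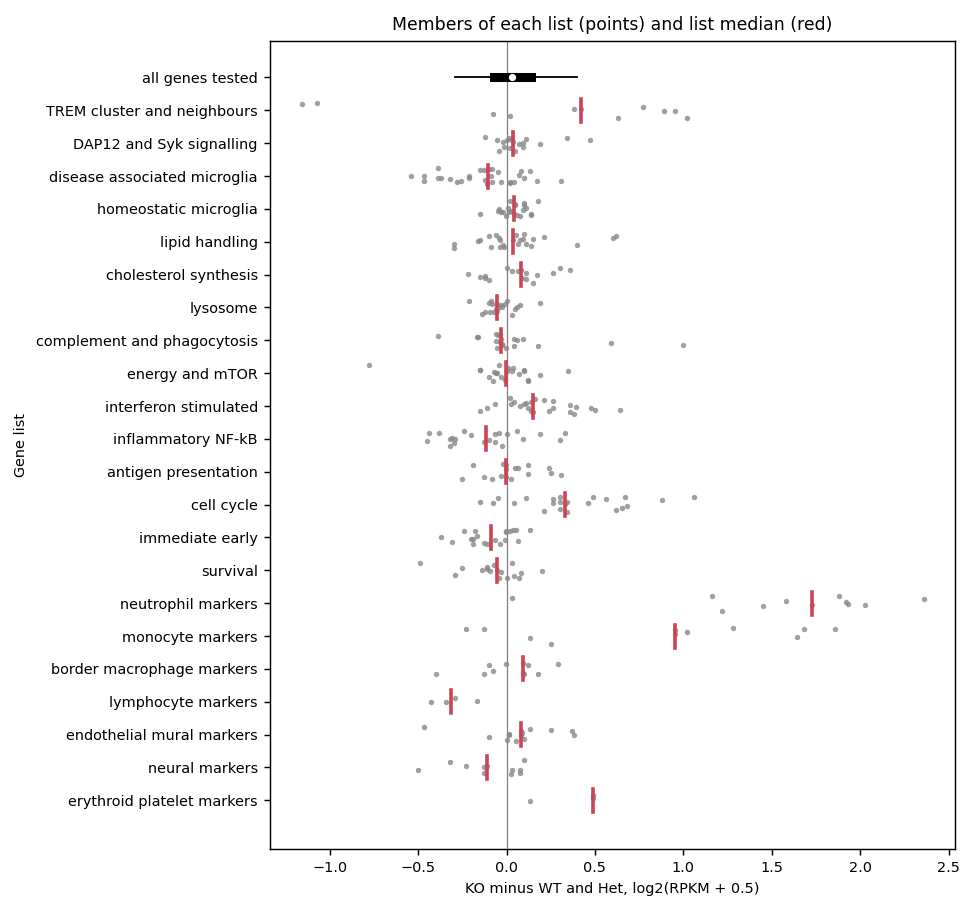
Difference between KO and intact libraries (log2(RPKM + 0.5)) for each tested member of the 22 lists (grey points), with the list median in red; the top line shows all 13641 genes, with the thick bar from the lower to the upper quartile, the thin line from the 5th to the 95th percentile and the white dot at the median. The medians of most lists lie near 0.031, the median of all genes, while those of neutrophil (1.73) and monocyte markers (0.95) lie far to the right.

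Markers of other CD11b-positive blood cells had the largest differences of the 22 lists. Of 11 neutrophil genes, 9 had KO higher at an unadjusted p under 0.05 (3.36% of all genes) and 0 lower (median 1.73). In 3 of them, Ngp, Camp and Mmp9, the groups did not overlap. The summed level of the 11 was 2411, 508 and 546 RPKM in KO libraries 6, 9 and 12 and 245 to 471 in the intact libraries. All 3 null libraries were thus above all 7 intact ones, and library 6 far above the rest. Ngp, a granule protein of neutrophils, was at 12.9 to 40.6 RPKM (median 21) and at 256, 41.8 and 56.3 in KO (2.03, SE 0.46, limma adjusted p = 0.804, and 0.94 without library 6). S100a9, a subunit of calprotectin, was at 34.6 to 155 RPKM and at 1040, 134 and 134 in KO, where libraries 9 and 12 lay inside the intact range (1.93, SE 0.58, and 0.62 without library 6). Csf3r, the receptor for the neutrophil growth factor G-CSF, was the most abundant of these markers in the intact libraries and did not move with the granule genes. It was at 113 to 141 RPKM in intact libraries and at 108, 136 and 165 in KO. Csf3r supplied 141 of the summed 245 RPKM in WT library 1 and 113 of 471 in Het library 5. The intact sums are therefore not a measure of granule genes alone. Without library 6 the list median was 0.75 and 3 of the 11 genes were higher at that p.

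Monocyte markers showed a smaller difference with less order. Of 11 genes 7 had KO higher at an unadjusted p under 0.05 (3.36% of all genes) and 0 lower (median 0.95). Without library 6, 2 were higher and 0 lower (median 0.47). The sums were 330, 176 and 216 RPKM in KO against 119 to 258 in intact libraries. A large part of most of these sums was Nr4a1, the most abundant member. It was at 68.6 to 178 RPKM in intact libraries and at 86.3, 103 and 141 in KO (-0.13, SE 0.25). Plac8 was at 0.244 to 1.37 RPKM and at 4.46, 1.02 and 0.965 in KO (1.28, SE 0.29, and 0.86 without library 6). Ly6c2, the antigen of classical monocytes, had means of 0.759, 1.03 and 2.44 RPKM in WT, Het and KO (0.95, SE 0.29), whereas Ccr2, the chemokine receptor of the same cells, had 7.97, 8.84 and 10.1 RPKM (0.25, SE 0.20). Chil3, Ifitm6 and Cd177 of this list (1.86, 1.68 and 1.64) are also made by neutrophils. The part of these cells in the differences of other genes was not tested.

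The summed markers of border macrophages (149, 209 and 247 RPKM in KO libraries 6, 9 and 12, against 132 to 252), of endothelial and mural cells (350, 275 and 282, against 206 to 357) and of neural cells (1005, 1092 and 1023, against 664 to 1762) lay inside the intact range. Most of the neural sum was Ttr (599 to 1691 RPKM in intact libraries and 947, 1029 and 961 in KO). That sum therefore says little about the other neural markers. Of 11 border macrophage genes, 0 had an unadjusted p under 0.05, with Mrc1, the mannose receptor, at 36.1 to 72.5 RPKM and at 44.3, 58.9 and 70.1 in KO. Endothelial and mural genes had 2 of 14 higher, the adhesion molecule Pecam1 (0.25, and 0.02 without library 6) and the tight junction protein Cldn5 (0.38). Neural genes had 0 of 11 at that p, although Mbp, myelin basic protein, was at 5.17 to 5.71 RPKM in intact libraries and at 4.34, 4.4 and 5.11 in KO, all lower (-0.23, SE 0.11, limma adjusted p = 0.996). Lymphocyte genes had 4 members tested, with Cd4 lower in KO (2.57 to 4.6 RPKM, and 2.17, 2.42 and 2.68; -0.43, SE 0.19). Their sum was 7, 9.38 and 8.52 RPKM in KO against 7.79 to 13.9, so KO 6 lay below the intact range. Of red cell and platelet genes 3 were tested, all with a positive difference and 0 at that p (median 0.49), or 1 higher without library 6. They summed to 10.4, 14.4 and 20.6 RPKM in KO against 10.4 to 15, with KO 12 above the intact range, and Hba-a1, Hba-a2, Hbb-bs and Hbb-bt were listed at 0 in all libraries.

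**Figure D5:**
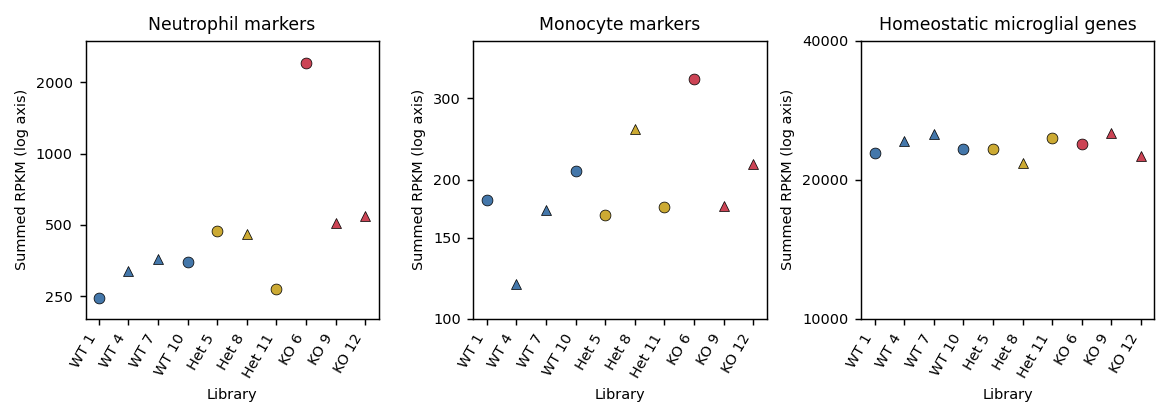
Summed RPKM of neutrophil markers, monocyte markers and homeostatic microglial genes in each library (log axes; circles female, triangles male; blue WT, yellow Het, red KO). KO 6 reaches 2411 RPKM for neutrophil markers, KO 9 and KO 12 lie just above the highest intact library at 471, and the homeostatic sums of all libraries lie between 21760 and 25291. Nr4a1 supplied a large part of most monocyte sums, and Csf3r a large part of some intact neutrophil sums.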

How the data were processed

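The authors deposited RPKM values on a linear scale, 1 file per library. The submitters' processing notes list the tools STAR, HTSeq, edgeR and limma and the genome build mm10, with versions, annotation and strand use not given in the sources used here. Values were whole-read multiples in all libraries: 98.38% of the 20008 genes above 0 gave a gene length that is whole within 0.01 bases. A spreadsheet had turned 27 names into dates; these genes stayed in the fit unnamed. limma 3.58.1 (R 4.3.3, with mean-variance trend) was fitted to log2(RPKM + 0.5) of 13641 genes with sex as a covariate; calls used an adjusted p under 0.05, two-sided. A second fit had 3 genotypes. Gene positions are from GENCODE M21, and promoters from RefSeq, where 85 of 108 named genes matched. Named were Trem2, the cluster genes, 12 kept genes per direction by fold among called genes and then by p (1 RPKM or more, no clone, microRNA, snoRNA or pseudogene names), and per list the 2 most abundant and the 2 of smallest p. Members and lists were chosen with earlier results of these data known. Replicates are libraries. The script was tested on simulated data, and 23 alternative settings were run. For some list members the result is not reported here.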

Additional observations from a re-analysis of the deposited data

Results flagged for a closer look

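Of 260 combinations of a value and a genotype group, 14 had 1 library far from the others of its group (Dixon's test at the 95% level, where chance marks about 1 in 20 groups). WT library 10 supplied 5 of them. It was the highest WT library for Plac8 (1.37 RPKM), C3 (4.22 RPKM) and Ube2c (3.41 RPKM), and the highest of the 7 intact libraries for the summed interferon-stimulated genes (458 RPKM) and the summed cell cycle genes (106 RPKM). WT library 7 was the lowest WT library for Abracl (8.9 RPKM) and Pcna (40.6 RPKM). WT library 1 was the lowest for Pdzrn3 (0.832 RPKM) and S100a9 (34.6 RPKM). WT library 4 was the highest intact library for Casp8 (133 RPKM), a caspase of death receptor signalling, and the lowest for the summed DAP12 pathway genes (1322 RPKM). Het library 5 was the highest intact library for Nfya (134 RPKM) and, with it, for the summed TREM cluster and neighbours (175 RPKM). Het library 11 was the lowest intact library for Bcl2a1b (40.1 RPKM). Groups of 3 libraries, which include all KO values, were not examined in this way.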

How the results depend on the processing

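Trem2 was lower in KO under all 23 alternatives, and 12 of them kept its call. The call ended with no filter on low values (-2.52, adjusted p = 0.24), in male libraries alone (-2.75, 0.369), in female libraries alone (-2.18, 0.112) and with a term for the deeper libraries (-2.43, 0.0678), a term chosen after seeing the data. Leaving out 1 library gave -2.75 to -2.33, where -2.75, without KO 6, is the same difference as in males alone. Genes called lower numbered 0 without the filter, in males alone or with the depth term, 2 in females alone, and 0 to 1 with 1 library left out. Genes called higher numbered 1 by limma-voom on recovered reads (Mmp9), 1 with the depth term (Camp), 17 by limma-voom with that term, 11 in females alone, where the lone KO library is assumed to vary like the others, and 0 to 0 with 1 library left out. Without overlap, 159 to 412 genes were higher and 69 to 247 lower with 1 library left out, and 83 were lower without the filter. Of 1583 combinations of a setting and 1 of the 69 other named genes followed by their difference, 10 changed sign, in 4 genes. The remaining 38 named genes, the most abundant list members, were followed by their level (57 of 874 moved); differences near 0 among them also changed sign, as in Tyrobp (-0.024) and Csf3r (-0.039) with the depth term. Oard1 was at -0.014 without the sex term and with median-ratio scaling, at -0.090 in males alone, and between -0.090 and 0.10 with 1 library left out. Foxp4 was at 0.25 in males alone and between -0.27 and 0.25 with 1 library left out. In females alone Gas6 was at -0.048 and Ppbp at -0.48. The cause was not tested. Sample quality weights gave 1053 genes at an unadjusted p under 0.05, and females alone 1521, against 662. No paired analysis was run, because the labels do not state whether libraries of different genotypes belong together. With 3 null libraries and 17.63 M reads in the smallest library, genes under 1 RPKM have a residual SD of 0.36, against 0.15 at 20 RPKM or more, and are measured less precisely.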
